A study of Rattus norvegicus with 8 samples.

Results

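The data bear on whether the difference between oesophageal neoplasia and the adjacent normal tissue of the same rat ran in opposite directions on a riboflavin-deficient and on a riboflavin-normal diet. Genes were taken as members when the mean difference, neoplasia minus adjacent tissue, had opposite signs in the diets and when the pair differences of the deficient diet did not overlap those of the normal diet. Of 22093 genes, 4966 met this rule. They comprised 2199 genes that were higher in neoplasia on the deficient diet and lower in neoplasia on the normal diet, and 2767 genes with the reverse pattern.

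The 8 expression arrays formed 4 groups of 2, namely neoplasia and adjacent normal tissue on the deficient diet (R0N+), and neoplasia and adjacent normal tissue on the normal diet (RcN+). Each of 4 rats gave both tissues, so a tissue difference is within an animal and a diet difference is between animals. All rats received the same carcinogen, N-nitrosomethylbenzylamine (NMBA), injected under the skin in doses of 0.35 mg/kg on 3 occasions a week over 5 weeks, and all were killed at week 25, so the normal diet is a control for the diet and not for the carcinogen. Strain, sex and age are not given in the labels. The tissue had been fixed in paraformaldehyde and embedded in paraffin, and how the lesions were delimited is not stated. Diet and individual rat cannot be told apart beyond the 2 rats that each diet holds.

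Riboflavin is the dietary precursor of FMN and FAD, the flavin cofactors of respiratory, lipid and redox enzymes. The rat oesophagus is lined by a stratified squamous epithelium. Its basal cells divide and express p63 and Krt14, and its upper layers switch to Krt4, Krt13 and cornified envelope proteins such as the small proline-rich proteins (Sprr). NMBA is activated in these epithelial cells, alkylates DNA and gives rise to squamous lesions.

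Values were log2 expression levels as deposited. The squamous markers Krt4 and Krt13 lay between 16.67 and 19.93 on every array, where 19.93 was the ceiling of the table, so the labelled epithelium was present in all groups. Skeletal muscle was present too, with Acta1 between 15.29 and 18.21, and so was smooth muscle, with Acta2 between 9.62 and 14.32. Markers of neutrophils (Mpo, 3.92 to 4.37, and Csf3r, 4.66 to 5.09), T cells (Cd3e, 4.33 to 5.18) and glands (Muc5b, 4.48 to 4.93) stayed close to 4.98, the table's median, or under it. The other markers of these cells were Elane (4.89 to 5.25), Aqp5 (4.28 to 5.02) and Cd3g. The T cell marker Cd3g lay between 4.87 and 5.63, so it rose further above the median. In bulk tissue, fewer cells of a type and less RNA per cell cannot be told apart.

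The arrays differed in quality. The separation of 399 positive from 1153 negative control probe sets, an area under the curve that is 0.5 where the sets cannot be distinguished, was 0.617 and 0.600 in neoplasia and 0.659 and 0.598 in adjacent tissue on the deficient diet, against 0.696 and 0.694 in neoplasia and 0.577 and 0.757 in adjacent tissue on the normal diet. Within pairs it differed, neoplasia minus adjacent tissue, by -0.042 and 0.002 on the deficient diet and by 0.119 and -0.063 on the normal diet. The 2 pairs on the normal diet thus stood on opposite sides, and the adjacent tissue of pair 2 on that diet, which had 472 probe sets at the ceiling against 1479 to 1749 on the other arrays, stood apart. Its part in the results was not tested beyond leaving that animal out.

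No gene passed the test of the diet difference. With limma, the difference between the tissue effects of the diets had a lowest adjusted p of 1.0 over all 22093 genes, that is 0% called, and the median SE of that difference was 0.28 log2 units. At an unadjusted p under 0.05, 224 genes (1.01%) had a higher and 536 genes (2.43%) a lower tissue effect on the deficient diet. Together these shares lay below the share that a threshold of 0.05 would call on average if no gene differed. With 2 pairs against 2, a two-sided exact permutation test cannot go below p = 0.333 for a single gene, so the genes below are described by their values. Over all genes the median diet difference was 0.002 and 50.3% of genes had a positive one.

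The rule was met by 9.95% of genes in the direction higher on the deficient diet and by 12.5% in the direction lower. The members were 2199 higher and 2767 lower, whereas after quantile normalisation they were 1913 higher and 3664 lower, and after cyclic loess 2201 higher and 3196 lower, so the balance moved with the scaling. In 1016 genes (4.60%) and 1399 genes (6.33%), both pairs of each diet had the sign of their diet. Members lower on the deficient diet lay at higher signal, with 72.0% of them above the median gene by mean level, against 37.3% of the members higher on that diet. When genes were split into 4 equal classes by mean level, the class with the highest signal had 22.5% lower and 4.49% higher members, and the lowest class had 6.44% lower and 13.0% higher members. The spread of gene values within an array, which also moves with control separation, differed by -0.16 and -0.01 between the tissues on the deficient diet and by 0.26 and -0.13 on the normal diet; its part in this pattern was not tested.

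Most member gaps were small. The gap between the diets, meaning the distance between the nearest pair differences of the deficient and the normal diet, had a median of 0.12 log2 units among members higher on the deficient diet and 0.18 among those lower. A gap of at least 1 was reached by 14 members higher and 85 members lower. Just inside the rule stood Fam114a1, with pair differences of 0.223 and -0.051 on the deficient diet and -0.052 and -0.641 on the normal diet. Just outside stood Atp5mg, with 0 and 0.015 on the deficient diet and 0 and -0.032 on the normal diet. In both tissues the arrays of the diets were fully apart, in opposite directions, in 276 of the members higher on the deficient diet (1.40% of all genes had such arrays) and in 325 of the members lower (1.60%).

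**Figure D1:**
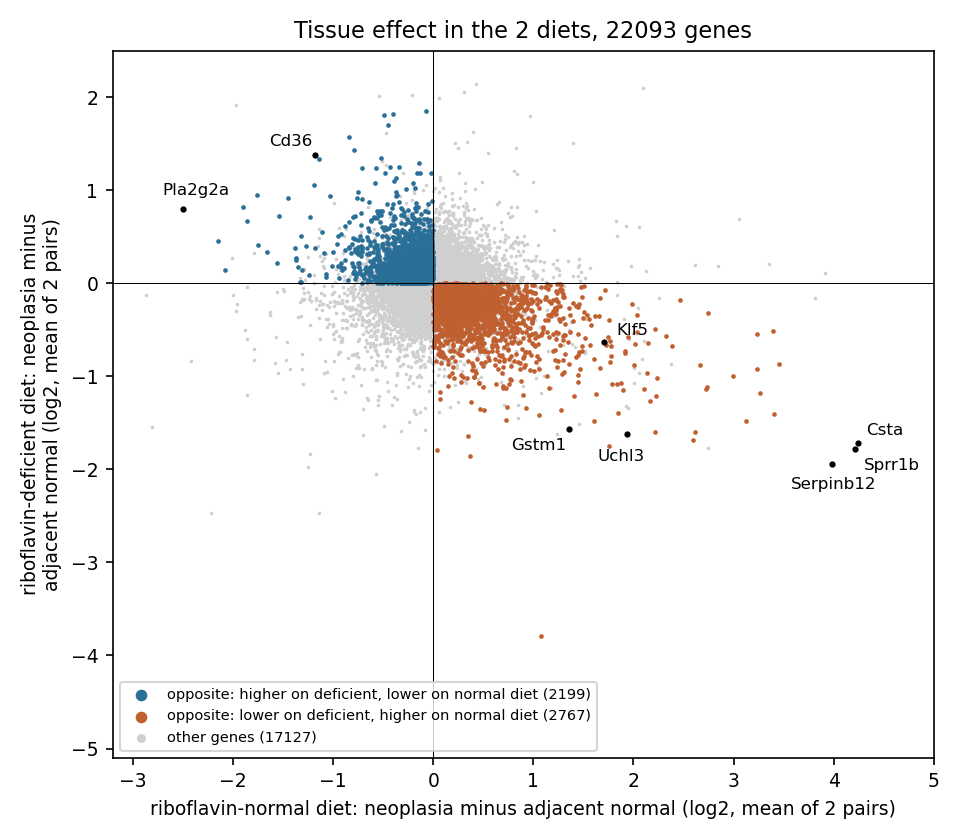
Mean tissue effect of every gene on the riboflavin-deficient diet (vertical axis) against the riboflavin-normal diet (horizontal axis), each as neoplasia minus adjacent normal tissue in log2 units over 2 pairs. The 2199 members higher on the deficient diet fill the upper left and the 2767 members lower fill the lower right, where Sprr1b, Csta and Serpinb12 lie farthest out.

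The 15 members with the widest gaps in the lower direction included the squamous genes Sprr1b, Csta, Serpinb12, Flg and Krt23. Sprr1b, a small proline-rich protein that is cross-linked into the cornified envelope, measured 9.42 and 9.04 in neoplasia and 11.47 and 10.56 in adjacent tissue on the deficient diet, against 13.59 and 12.50 in neoplasia and 8.06 and 9.61 in adjacent tissue on the normal diet. The arrays of the diets did not overlap in either tissue, and the diet with the higher values was not the same in the 2 tissues. The mean tissue effect was -1.78 (0.29-fold) on the deficient diet and 4.21 (18.6-fold) on the normal diet, a diet difference of -6.00 ± 0.90 (SE, n = 2 pairs per diet), with an adjusted p of 1.0 in limma.

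Csta, cystatin A, a protease inhibitor of the cornified envelope, measured 11.12 and 12.86 in neoplasia and 14.35 and 13.07 in adjacent tissue on the deficient diet, against 15.67 and 15.36 in neoplasia and 9.64 and 12.91 in adjacent tissue on the normal diet. Here the neoplasia arrays were widely apart, whereas the adjacent arrays differed by 0.16 at their nearest. The diet difference was -5.96 ± 1.54. Serpinb12, an epithelial serine protease inhibitor, had pair differences of -3.67 and -0.21 on the deficient diet and 5.97 and 2.00 on the normal diet, so that pair 1 of either diet carried most of its difference of -5.93 ± 1.73.

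Uchl3, a ubiquitin C-terminal hydrolase, had the second widest gap. It measured 8.74 and 8.36 in neoplasia and 10.55 and 9.79 in adjacent tissue on the deficient diet, against 9.82 and 12.13 in neoplasia and 7.28 and 10.80 in adjacent tissue on the normal diet. The pair differences all lay at least 1.33 log2 units from 0, and the diet difference was -3.56 ± 0.47. The diets were 1.09 apart at their nearest in neoplasia and overlapped in adjacent tissue.

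The bases upstream of Sprr1b, Csta and Uchl3 are shown because these were the members with the widest gaps and because Sprr genes are known targets of AP-1. The sequences are from RefSeq on build GRCr8, 250 bases before each annotated start, 5′ to 3′ on the gene's strand. Matches to TGANTCA and to TATAAA are in capitals, both strands having been searched. TGANTCA is a loose AP-1 pattern in which N is any base. The stricter AP-1 consensus has C or G at N and was not counted separately.
Sprr1b, chr2:180706356-180706605, minus strand: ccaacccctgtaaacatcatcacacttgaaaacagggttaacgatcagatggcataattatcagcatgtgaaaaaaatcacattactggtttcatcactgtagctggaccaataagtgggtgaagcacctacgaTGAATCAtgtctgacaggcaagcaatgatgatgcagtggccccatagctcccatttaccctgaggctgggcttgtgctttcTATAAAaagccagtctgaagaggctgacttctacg
Csta, chr11:78125563-78125812, plus strand: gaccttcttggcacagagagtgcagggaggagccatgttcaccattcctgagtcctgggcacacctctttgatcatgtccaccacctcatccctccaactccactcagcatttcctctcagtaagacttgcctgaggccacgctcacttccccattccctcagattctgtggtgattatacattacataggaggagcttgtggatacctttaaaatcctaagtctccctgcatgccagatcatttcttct
Uchl3, chr15:84899828-84900077, plus strand: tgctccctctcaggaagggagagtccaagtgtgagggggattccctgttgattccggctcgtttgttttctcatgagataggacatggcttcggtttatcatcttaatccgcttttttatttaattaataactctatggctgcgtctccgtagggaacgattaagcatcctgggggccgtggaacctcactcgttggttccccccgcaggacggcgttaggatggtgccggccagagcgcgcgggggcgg
The Sprr1b window held a match to the loose AP-1 pattern at -116 to -110, with A at N, so not the stricter consensus. It held the TATA letters at -35 to -30 from the start, and the Csta and Uchl3 windows held neither pattern. TGANTCA occurred in 6.34% of 33469 upstream windows. Of the 15 leading members lower on the deficient diet, 13 had a window, and 1 of these genes had a match. Of the 15 leading members higher, 11 had a window, and 0 of these genes had a match. TATAAA occurred in 12.9% of all windows and in 3 of the 13 and 3 of the 11 genes. A gene counted once if any of its windows matched, so its unit is not that of the windows. The motifs do not overlap each other, and a match describes letters only.

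The suprabasal squamous list held 64 measured genes, of which 30 (46.9%) were members lower on the deficient diet and 2 (3.12%) were members higher. Over all genes 12.5% were members lower and 9.95% members higher. In the class with the highest signal, which began at a mean of 5.88, the shares were 22.5% and 4.49%. The list's array medians of 6.77 to 8.65 lay in the range of that class. Its median diet difference was -1.59, against 0.002 over all genes. The list's median pair difference was -1.12 and 0.15 on the deficient diet and 1.84 and 0.26 on the normal diet, so pair 1 of each diet set the size of the list's shift. In those pairs control separation differed by -0.042 on the deficient diet and 0.119 on the normal diet, and with separation as a covariate the median was -0.88. Without pair 1 of the deficient diet the median was -0.81, without pair 1 of the normal diet -0.65, and without pair 2 of the normal diet -2.40.

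Filaggrin (Flg), a granular-layer protein, measured 5.99 and 7.04 in neoplasia and 9.10 and 7.13 in adjacent tissue on the deficient diet, against 8.05 and 6.38 in neoplasia and 5.28 and 4.72 in adjacent tissue on the normal diet. Its pair differences of -3.10 and -0.10 on the deficient diet show how unequal the 2 pairs were. Ehf, an epithelial ETS transcription factor, had pair differences of -1.84 and -0.20 on the deficient diet and 3.24 and 1.24 on the normal diet. Krt23, a type I keratin, had -1.57 and -0.13 on the deficient diet and 1.95 and 1.57 on the normal diet. The main suprabasal keratins were no members, since Krt4 differed by -1.07 and 0.13 on the deficient diet and by 2.14 and -0.01 on the normal diet, partly at the ceiling, and Krt13 by -1.61 and 0.10 on the deficient diet and by 3.10 and -0.06 on the normal diet.

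Keratinocyte stress genes, which squamous cells switch on in wounds and inflamed skin, had 10 of 27 members lower on the deficient diet (37.0%) and none higher, with a median of -1.39. Members lower were 12.5% of all genes and 22.5% of the class with the highest signal, where this list's array medians lay. Serpinb2, an inhibitor of urokinase, measured 6.29 and 7.56 in neoplasia and 7.81 and 7.61 in adjacent tissue on the deficient diet, against 8.03 and 8.77 in neoplasia and 6.69 and 6.57 in adjacent tissue on the normal diet. Its arrays were apart in both tissues, by 0.47 in neoplasia and 0.93 in adjacent tissue at their nearest. Serpinb3, a squamous cell serpin, had pair differences of -0.52 and -0.17 on the deficient diet and 1.08 and 2.00 on the normal diet. The stefin Stfa3 differed by -2.91 and -0.59 on the deficient diet and by 3.15 and 0.37 on the normal diet, the last pair having its neoplasia value at the ceiling, so its diet difference of -3.51 is a bound. Without pair 1 of the normal diet the list's median was -0.56, and without pair 1 of the deficient diet it was -0.82.

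Basal keratinocyte genes had as many members lower, with a smaller median. Of 27 measured, 10 were members lower on the deficient diet (37.0%) and 1 was a member higher (Cav1, the caveolar coat protein, with a diet difference of 0.63), and the median was -0.40. This list too had its array medians in the class with the highest signal, where 22.5% were members lower, against 12.5% over all genes. Klf5, a transcription factor of proliferating basal keratinocytes, measured 7.41 and 7.33 in neoplasia and 8.46 and 7.53 in adjacent tissue on the deficient diet, against 8.91 and 9.42 in neoplasia and 7.02 and 7.89 in adjacent tissue on the normal diet. The neoplasia arrays of the diets were 1.50 log2 units apart at their nearest, the adjacent arrays overlapped, and the diet difference was -2.33 ± 0.37.

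Perp, a desmosomal protein and p53 target, differed by -2.31 and -0.05 on the deficient diet and by 5.61 and 0.91 on the normal diet. Trim29, a keratinocyte ubiquitin ligase, differed by -1.21 and -0.07 on the deficient diet and by 3.77 and 0.51 on the normal diet. Tp63, the p63 gene itself, met the rule with pair values of -1.04 and 0.42 on the deficient diet and 1.98 and 1.03 on the normal diet, but its 2 deficient pairs disagreed in sign. Krt14 was no member, with -0.08 and 0.31 on the deficient diet and 7.70 and 0.12 on the normal diet, the difference resting on 1 pair. Without pair 1 of the normal diet the median of the basal list was -0.01, without pair 2 of that diet it was -0.96, and with control separation as a covariate it was -0.24.

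**Figure D2:**
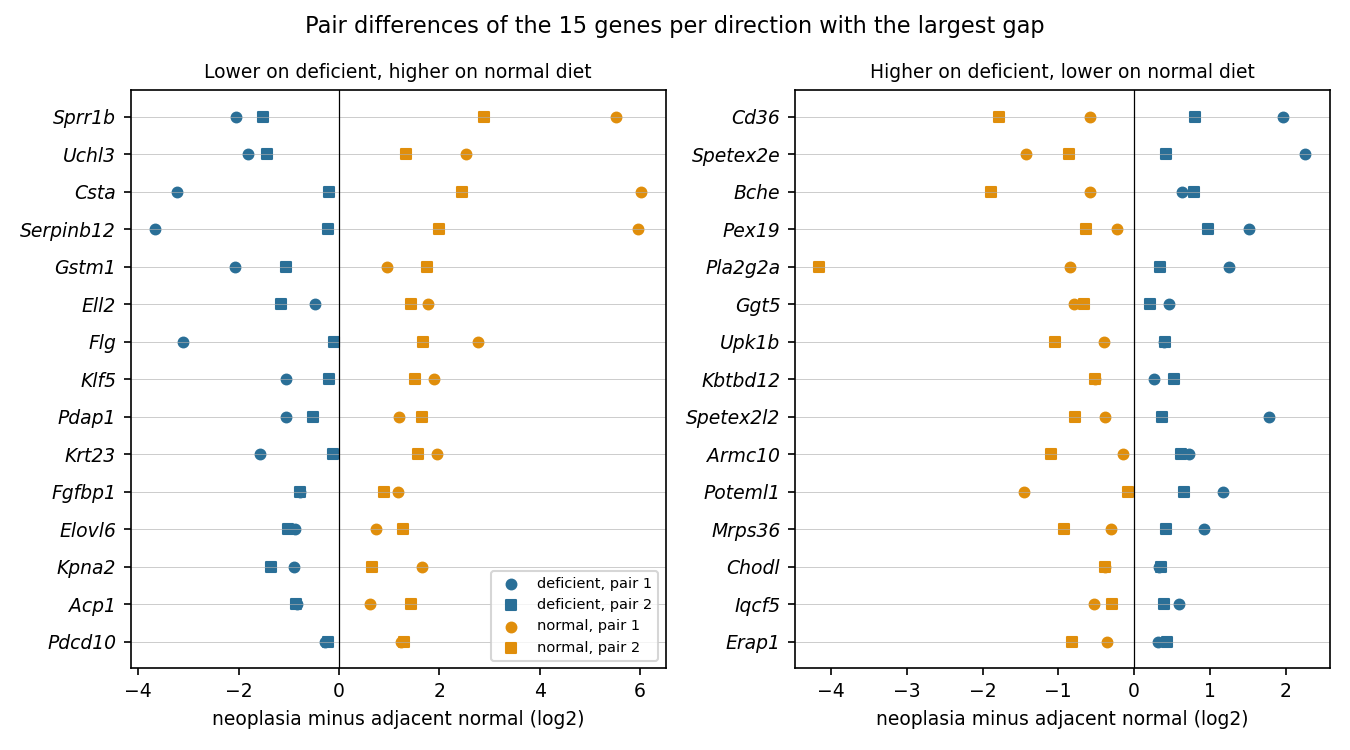
Pair differences, neoplasia minus adjacent normal tissue in log2 units, of the 15 members per direction with the largest gap; blue marks are the 2 pairs on the riboflavin-deficient diet and orange marks the 2 pairs on the normal diet. In the left panel the pairs on the deficient diet lie below 0 and those on the normal diet above it, with Csta reaching 6.03, and in the right panel the sides are exchanged, with Pla2g2a reaching -4.16.

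Outside the epithelial lists, the leading members lower on the deficient diet included a detoxifying enzyme, a lipid elongase and a growth factor carrier. Gstm1, a mu-class glutathione S-transferase with near-identical paralogues that its probes may share, measured 6.58 and 7.41 in neoplasia and 8.65 and 8.47 in adjacent tissue on the deficient diet, against 8.56 and 10.84 in neoplasia and 7.59 and 9.10 in adjacent tissue on the normal diet. Neoplasia arrays were apart between the diets and adjacent arrays were not. The tissue effect was -1.56 (0.34-fold) on the deficient diet and 1.36 (2.56-fold) on the normal diet, and the diet difference was -2.92 ± 0.47.

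Fgfbp1, which releases fibroblast growth factors from the matrix, was one of the most even members. It measured 6.66 and 6.44 in neoplasia and 7.44 and 7.22 in adjacent tissue on the deficient diet, against 7.60 and 7.14 in neoplasia and 6.43 and 6.23 in adjacent tissue on the normal diet. The arrays were apart in both tissues, the pair differences within a diet lay within 0.26 of each other, and the diet difference was -1.81 ± 0.23. Elovl6, which elongates saturated fatty acids, measured 7.02 and 6.96 in neoplasia and 7.89 and 7.97 in adjacent tissue on the deficient diet, against 7.43 and 7.98 in neoplasia and 6.70 and 6.71 in adjacent tissue on the normal diet. Its diet difference was -1.95 ± 0.28, and its arrays were also apart in both tissues, but with the mean of its 3 probe sets in place of the one with the highest mean the difference was -0.89.

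The remaining leading members in this direction were Ell2, a subunit of a transcription elongation complex (-2.42 ± 0.33), Pdap1, a PDGF-binding phosphoprotein (-2.21 ± 0.31), Kpna2, an importin of dividing cells (-2.28 ± 0.41), Acp1, a low molecular weight phosphatase (-1.88 ± 0.34), and Pdcd10, a protein of vascular junctions (-1.51 ± 0.21). With the mean of its 3 probe sets Acp1 had -0.72. The pairs of Pdcd10 repeated closely, at -0.28 and -0.21 on the deficient diet and 1.25 and 1.29 on the normal diet. Rab5a, an early endosome GTPase named here because its mean effect on the deficient diet was the lowest of all members, had pair differences of -3.05 and -4.54 on the deficient diet and 3.79 and -1.63 on the normal diet. Its 2 normal-diet pairs had opposite signs, so it met the rule by its mean only.

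**Figure D3:**
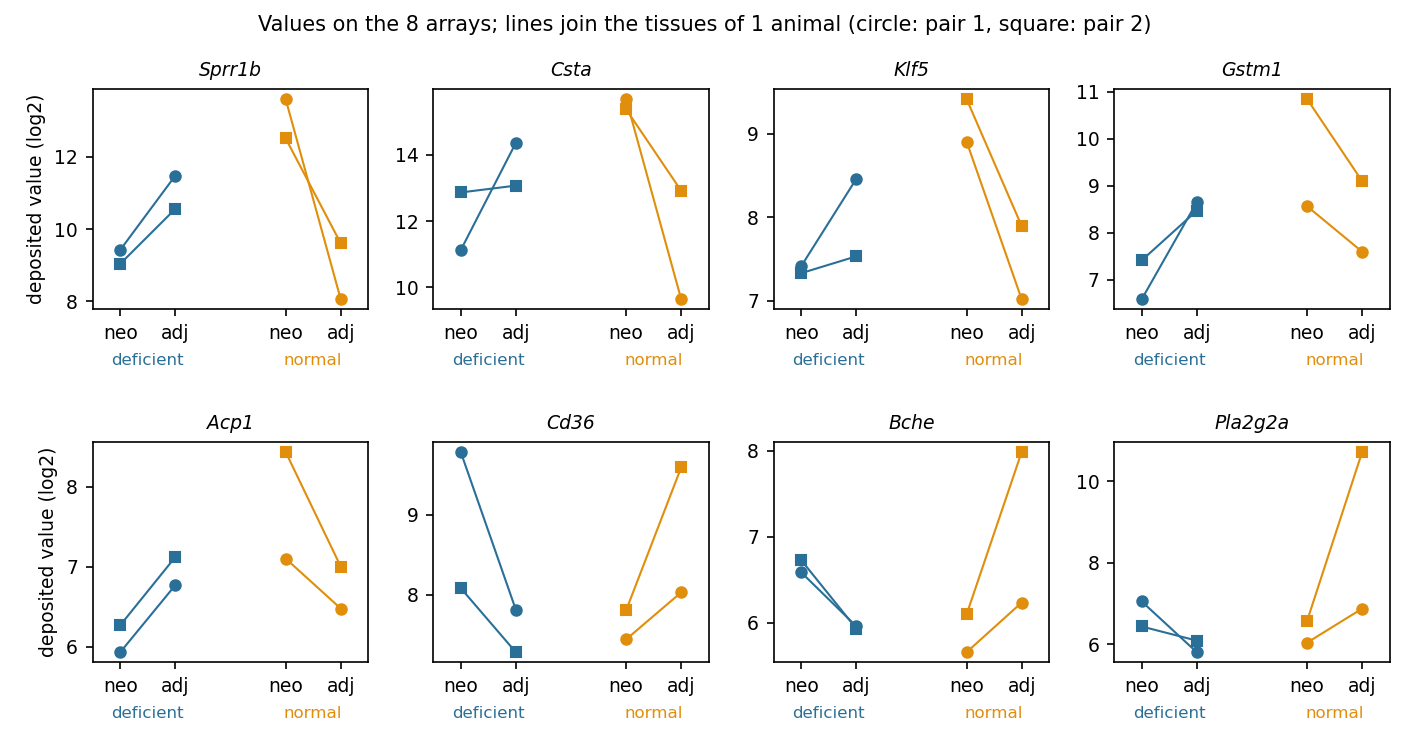
Deposited log2 values of 8 members on the 8 arrays, with neoplasia left of adjacent tissue and the riboflavin-deficient diet left of the normal diet; lines join the tissues of 1 animal, circles being pair 1 and squares pair 2. Lines slope in opposite directions in the diets in every panel, and the adjacent tissue of pair 2 on the normal diet stands apart in Pla2g2a at 10.72.

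Cd36, a scavenger receptor and fatty acid transporter, led the members higher on the deficient diet. It measured 9.78 and 8.08 in neoplasia and 7.81 and 7.28 in adjacent tissue on the deficient diet, against 7.44 and 7.80 in neoplasia and 8.03 and 9.59 in adjacent tissue on the normal diet. The arrays of the diets were apart in both tissues. The tissue effect was 1.38 (2.61-fold) on the deficient diet and -1.19 (0.44-fold) on the normal diet, a diet difference of 2.57 ± 0.58. Without pair 2 of the normal diet the difference was 1.97.

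Bche, butyrylcholinesterase, measured 6.59 and 6.73 in neoplasia and 5.96 and 5.93 in adjacent tissue on the deficient diet, against 5.66 and 6.10 in neoplasia and 6.24 and 7.99 in adjacent tissue on the normal diet. Its arrays were apart in both tissues too, and the diet difference was 1.95 ± 0.48. The adjacent tissue of pair 2 on the normal diet stood 1.26 above the next highest array. Without that animal the diet difference of Bche was 1.29. Pla2g2a, a secreted phospholipase A2 of inflamed tissue, measured 7.05 and 6.43 in neoplasia and 5.80 and 6.08 in adjacent tissue on the deficient diet, against 6.03 and 6.57 in neoplasia and 6.87 and 10.72 in adjacent tissue on the normal diet. A single array, the adjacent tissue of pair 2 on the normal diet, stood 3.68 above the next highest, and without that animal the diet difference was 1.64 in place of 3.30.

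Pex19, which carries membrane proteins to peroxisomes, measured 8.21 and 7.33 in neoplasia and 6.69 and 6.36 in adjacent tissue on the deficient diet, against 5.85 and 5.78 in neoplasia and 6.07 and 6.42 in adjacent tissue on the normal diet. By mean, Pex19 was higher on the deficient diet than on the normal diet by 1.96 in neoplasia and by 0.28 in adjacent tissue. The diet difference of the tissue effect was 1.68 ± 0.31. In neoplasia the diets were 1.49 apart at their nearest. With the mean of its 3 probe sets the diet difference was 0.93. Mrps36, a mitochondrial protein, had pair differences of 0.93 and 0.42 on the deficient diet and -0.31 and -0.93 on the normal diet. Erap1, which trims peptides for MHC class I, had 0.31 and 0.44 on the deficient diet and -0.35 and -0.81 on the normal diet. Its diet difference was 0.96, and 0.73 without pair 2 of the normal diet.

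Smaller members of the leading 15 were Ggt5, a leukotriene-converting gamma-glutamyltransferase (1.06 ± 0.23), Upk1b, a uroplakin of urothelium (1.13 ± 0.30), Kbtbd12, a kelch-repeat protein (0.91 ± 0.23), Armc10, an armadillo-repeat protein (1.29 ± 0.38), Chodl, a membrane lectin (0.73 ± 0.21), and Iqcf5, an IQ-motif protein (0.90 ± 0.23). With the mean of their 2 probe sets Ggt5 had 0.41 and Kbtbd12 had 0.43, and without pair 2 of the normal diet Armc10 had 0.82 and Upk1b had 0.80. Chodl was the most even, with 0.34 and 0.36 on the deficient diet and -0.39 and -0.39 on the normal diet. Spetex2e (2.48 ± 0.66), Spetex2l2 (1.66 ± 0.52) and Poteml1 (1.68 ± 0.52) belong to multigene families, and their probes may be shared between copies. Spetex2e had 1.56 and Spetex2l2 had 0.96 without pair 1 of the deficient diet, and Poteml1 had 0.80 with the mean of its 2 probe sets and 0.999 without pair 1 of the normal diet. Spetex2e ranged between 5.23 and 9.998 over the arrays, and more between animals of a diet than between tissues of an animal.

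Proliferation genes had 14 of 56 members lower on the deficient diet (25.0%) and none higher, at a median of -0.13 and at signal near the table's median. The shares over all genes were 12.5% lower and 9.95% higher. The median was -0.19 after quantile normalisation and after cyclic loess. Mki67, the Ki-67 antigen, measured 5.74 and 5.83 in neoplasia and 6.58 and 5.88 in adjacent tissue on the deficient diet, against 6.48 and 6.995 in neoplasia and 5.71 and 5.94 in adjacent tissue on the normal diet. Its neoplasia arrays were apart and its adjacent arrays overlapped.

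Cenpe, a mitotic kinesin, was apart in both tissues with a diet difference of -0.76 ± 0.22, and Prc1, a spindle midzone protein, had -0.81 ± 0.25. Birc5, survivin, had its larger pair differences on the deficient diet, at -1.08 and -0.48, against 0.12 and 0.02 on the normal diet. Without pair 2 of the normal diet the list's median was -0.07, and without pair 1 of that diet it was -0.26. Among the 45 EGFR, Wnt and Notch genes, 15 were members lower (33.3%) and 1 was a member higher, at a median of -0.19. Members lower were 12.5% of all genes. The list's members included Ccnd1, cyclin D1 (-0.69 ± 0.27), and the ErbB ligand gene Nrg1 (-0.69 ± 0.23). The arrays of Nrg1 were apart in both tissues, but by only 0.01 in adjacent tissue at their nearest. Ccnd1 had -0.43 without pair 1 of the normal diet, and without pair 2 of that diet the median of the signalling list was -0.10. The cell cycle inhibitor Cdkn1a, a p53 target, had -0.93 ± 0.25.

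Heat shock and unfolded protein genes had 12 of 36 members lower on the deficient diet (33.3%) and none higher, with a median of -0.52. The share lower was 12.5% over all genes. It was 22.5% in the class with the highest signal, where the list's array medians of 6.60 to 7.59 lay. Hsp90b1, the endoplasmic reticulum HSP90, measured 8.96 and 8.34 in neoplasia and 9.69 and 9.32 in adjacent tissue on the deficient diet, against 10.51 and 10.51 in neoplasia and 9.20 and 10.07 in adjacent tissue on the normal diet. Its neoplasia arrays were 1.55 apart at their nearest and its adjacent arrays overlapped. Hsp90aa1, the inducible cytosolic HSP90, had a diet difference of -1.32 ± 0.24, and Hspd1, the mitochondrial HSP60, had -1.12 ± 0.27. The list's median was -0.31 without pair 1 of the deficient diet, -0.27 without pair 1 of the normal diet and -0.86 without pair 2 of that diet. It was -0.28 with control separation as a covariate and -0.30 after cyclic loess.

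Cytosolic ribosomal protein genes had 11 of 70 members lower (15.7%) and none higher, against 12.5% lower over all genes and 22.5% lower in the class with the highest signal, and the array medians of the list were 8.70 to 11.03. The median diet difference was -0.52 and 65 of the 70 had a negative one; after cyclic loess the median was -0.27. Their median pair differences were -0.48 and 0.02 on the deficient diet and 1.04 and -0.38 on the normal diet and had the signs of the pairs' differences in control separation. The median was 0.18 without pair 1 of the normal diet, -1.26 without pair 2 of that diet, -0.23 without pair 1 of the deficient diet and -0.13 with control separation as a covariate. Rpl23a had pair differences of -1.15 and -1.05 on the deficient diet and 1.24 and 0.16 on the normal diet. Rpl19 had -0.85 and -0.99 on the deficient diet and 1.66 and 0.07 on the normal diet, and Rps28 had -0.13 and -0.91 on the deficient diet and 2.28 and 0.46 on the normal diet. Ribosomal protein genes have many processed pseudogenes that probes can share.

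Genes of the NRF2 response, which renews glutathione and thioredoxin, had 14 of 43 members lower on the deficient diet (32.6%) and 1 higher, with a median of -0.29. The share lower was 12.5% over all genes. It was 22.5% in the class with the highest signal, where the list's array medians of 6.02 to 7.02 lay. Gpx2, an epithelial glutathione peroxidase, measured 9.29 and 8.29 in neoplasia and 9.57 and 8.79 in adjacent tissue on the deficient diet, against 10.01 and 10.69 in neoplasia and 7.39 and 9.80 in adjacent tissue on the normal diet. Neoplasia arrays were apart and adjacent arrays overlapped. Gclm, the modifier subunit of the glutathione-synthesising ligase, had a diet difference of -1.14 ± 0.26, and Slc7a11, the cystine importer, had -1.51 ± 0.46. The pair differences of Slc7a11 were -0.09 and -0.57 on the deficient diet and 0.59 and 1.76 on the normal diet, so pair 2 of the normal diet carried much of it. After cyclic loess the median of the list was -0.15. Without pair 2 of the normal diet the median was -0.43, and without pair 1 of that diet it was -0.16.

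Fatty acid and sterol synthesis genes had 10 of 33 members lower (30.3%) and 2 higher, at a median of -0.16. Members lower were 12.5% of all genes and 22.5% of the class with the highest signal. The list's array medians were 5.77 to 6.35, and that class began at 5.88. Besides Elovl6, Elovl1, which elongates very long chain fatty acids, differed by -1.35 and -0.01 on the deficient diet and by 3.79 and 0.98 on the normal diet. Scd2, a stearoyl-CoA desaturase, differed by -0.43 and -0.44 on the deficient diet and by 1.14 and 0.37 on the normal diet. Its arrays were apart in both tissues, by 0.53 in neoplasia but only 0.01 in adjacent tissue at their nearest. Without pair 1 of the normal diet the median was -0.07.

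DNA repair genes had 9 of 35 members lower (25.7%) and 3 higher, against 12.5% lower and 9.95% higher over all genes, at a median of -0.08. Ogg1, the glycosylase that removes oxidised guanine, measured 5.30 and 5.35 in neoplasia and 5.62 and 5.58 in adjacent tissue on the deficient diet, against 5.67 and 5.68 in neoplasia and 5.29 and 4.90 in adjacent tissue on the normal diet. Its arrays were apart in both tissues, and the diet difference was -0.85 ± 0.25. Rad23b, a nucleotide excision repair factor, had -1.48 ± 0.26. The list's median was -0.04 without pair 2 of the deficient diet.

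Genes of flavin biology were spread over both directions. Of 10 genes for riboflavin transport and flavin cofactor synthesis, 2 were members lower on the deficient diet (20%) and 1 was a member higher (10%). Shares over all genes were 12.5% and 9.95%. The list's median was -0.02 and ran between -0.20 and 0.05 when an animal was left out. The riboflavin transporter Slc52a3 measured 5.19 and 5.20 in neoplasia and 5.48 and 5.21 in adjacent tissue on the deficient diet, against 5.37 and 5.30 in neoplasia and 5.23 and 5.11 in adjacent tissue on the normal diet. These values were within 0.37 of each other, and the diet difference was -0.32 ± 0.23. Slc25a32, the mitochondrial FAD carrier, differed by 0.54 and 0.12 on the deficient diet and by -0.46 and -0.02 on the normal diet. Acp1, described above with its probe sets that disagree in size and assigned to FMN hydrolysis in pathway databases, was the other member. Slc52a2, a second riboflavin transporter, and Rfk, riboflavin kinase, were no members, with diet differences of 0.17 ± 0.26 and -0.42 ± 0.38.

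Enzymes that bind FAD or FMN had 8 of 74 members higher (10.8%) and 11 lower (14.9%) on the deficient diet, near the shares over all genes, with a median of 0.04. Squalene epoxidase (Sqle) had pair differences of -0.27 and -0.09 on the deficient diet and 1.79 and 0.61 on the normal diet, and its diet difference of -1.38 ± 0.44 was -0.79 without pair 1 of the normal diet. The diet difference was -0.71 ± 0.23 for the sulfide oxidase Sqor and -0.53 ± 0.21 for the spermine oxidase Smox. Acad8, the isobutyryl-CoA dehydrogenase, had 0.55 ± 0.25, and 0.35 without pair 2 of the normal diet. In Smox and Acad8 the arrays of the diets were apart in both tissues, by as little as 0.09 in neoplasia for Smox and in adjacent tissue for Acad8. The sign of the list's median turned with quantile normalisation (-0.03) and without pair 1 of the deficient diet (-0.01).

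Ndufb6, a subunit of respiratory complex I, had pair differences of -1.13 and -0.07 on the deficient diet and 1.64 and 0.81 on the normal diet. The oxidative phosphorylation list as a whole had 5 of 52 members higher and 5 lower (9.62% each), at a median of 0.13. The shares over all genes were 9.95% and 12.5%. This median was 0.26 after cyclic loess and had the other sign without pair 2 of the deficient diet (-0.07) and without pair 2 of the normal diet (-0.21).

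Inflammation is named in the series title. Of 47 cytokines and chemokines, 4 were members higher (8.51%) and 8 lower (17.0%) on the deficient diet, against 9.95% and 12.5% over all genes, at a median of -0.001. Il1a, the epithelial alarmin interleukin 1 alpha, measured 4.69 and 5.01 in neoplasia and 5.77 and 5.39 in adjacent tissue on the deficient diet, against 4.85 and 5.16 in neoplasia and 4.74 and 4.94 in adjacent tissue on the normal diet. The diets overlapped in neoplasia and were apart in adjacent tissue. Tnf had pair differences of -0.07 and -1.48 on the deficient diet, where 1 adjacent array stood at 5.83 against 4.08 to 4.58 on the others, and 0.26 and 0.27 on the normal diet. Ccl22, a chemokine for regulatory T cells, had a diet difference of -0.58 ± 0.22 at signal below the table's median.

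The calgranulin S100a8, an inflammation marker of neutrophils and stressed keratinocytes, was higher in neoplasia in all 4 pairs and did not meet the rule. It measured 6.86 and 8.53 in neoplasia and 5.83 and 5.36 in adjacent tissue on the deficient diet, against 8.12 and 7.54 in neoplasia and 5.98 and 5.47 in adjacent tissue on the normal diet. The mean effect was 2.10 in either diet, with a diet difference of -0.002 ± 0.73. With an error of this size, and with no gene called by the test, equal effects in the diets are not shown. Its partner S100a9 had an effect of 1.46 on the deficient diet and 0.83 on the normal diet, a difference of 0.63 ± 0.24 between effects of the same sign.

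Il36g, an epithelial interleukin 36, was also higher in neoplasia in all pairs, by 0.45 and 0.76 on the deficient diet and by 3.05 and 1.07 on the normal diet. Ccl2, a monocyte chemokine, was higher by 0.76 and 0.40 on the deficient diet and by 1.67 and 0.75 on the normal diet. Il1b (-0.43 ± 0.35), Ptgs2, the inducible cyclooxygenase (-0.43 ± 0.26), and Cxcl1 (0.07 ± 0.22) were no members either.

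The NF-kB and prostaglandin list had 3 of 39 members higher (7.69%) and 7 lower (17.9%) on the deficient diet. Shares over all genes were 9.95% and 12.5%, and the list's median diet difference was -0.09. Ripk2, a kinase that couples bacterial sensing to NF-kB, measured 6.86 and 6.31 in neoplasia and 7.02 and 6.54 in adjacent tissue on the deficient diet, against 6.89 and 7.52 in neoplasia and 6.08 and 6.87 in adjacent tissue on the normal diet. Its diet difference was -0.92 ± 0.22. Nfkb1, a subunit of the factor, met the rule with pair differences of at most 0.17 in size. Nfkbia, its inhibitor, was no member (-0.33 ± 0.39). The list's median was -0.17 without pair 2 of the deficient diet, -0.04 without pair 1 of that diet, -0.01 without pair 1 of the normal diet and -0.17 without pair 2 of the normal diet.

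Macrophage and myeloid genes had 6 of 31 members higher (19.4%) and none lower, against 9.95% and 12.5% over all genes, at a median of 0.12 that was 0.03 after quantile normalisation and 0.06 after cyclic loess. Cd68, a lysosomal protein of macrophages, measured 6.71 and 6.42 in neoplasia and 6.38 and 5.98 in adjacent tissue on the deficient diet, against 6.16 and 5.74 in neoplasia and 6.42 and 6.64 in adjacent tissue on the normal diet. Its arrays were apart in both tissues, by 0.26 in neoplasia but only 0.03 in adjacent tissue at their nearest, and the diet difference was 0.96 ± 0.30. The macrophage markers Csf1r and C1qa were not members.

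T and NK cell genes had 7 of 32 members higher (21.9%) and none lower, at a median of 0.09, among them Il7r, the interleukin 7 receptor (0.61 ± 0.24). Interferon response genes had 9 of 32 higher (28.1%) and 2 lower, at a median of 0.08, led by the interferon-induced GTPase Gbp2, whose pair differences were 0.02 and 0.05 on the deficient diet and -0.56 and -0.54 on the normal diet. Over all genes 9.95% were members higher and 12.5% members lower. Signal was low in both lists, with array medians of 4.85 to 5.12 in the T and NK list. In the interferon list they were 4.76 to 4.99. All but the highest T and NK value lay in the level class of 4.59 to 5.10. That class had 12% members higher and 7.57% lower, and the part of signal level in the shares of these lists was not tested. Neutrophil genes had 3 of 24 higher and 2 lower. After cyclic loess the medians were 0.05 for T and NK cells and 0.02 for interferon response. Without pair 1 of the normal diet the medians of these lists were -0.05 for T and NK cells, -0.01 for interferon response, -0.08 for neutrophils and 0.12 for macrophages. The macrophage median was 0.04 without pair 1 of the deficient diet.

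**Figure D4:**
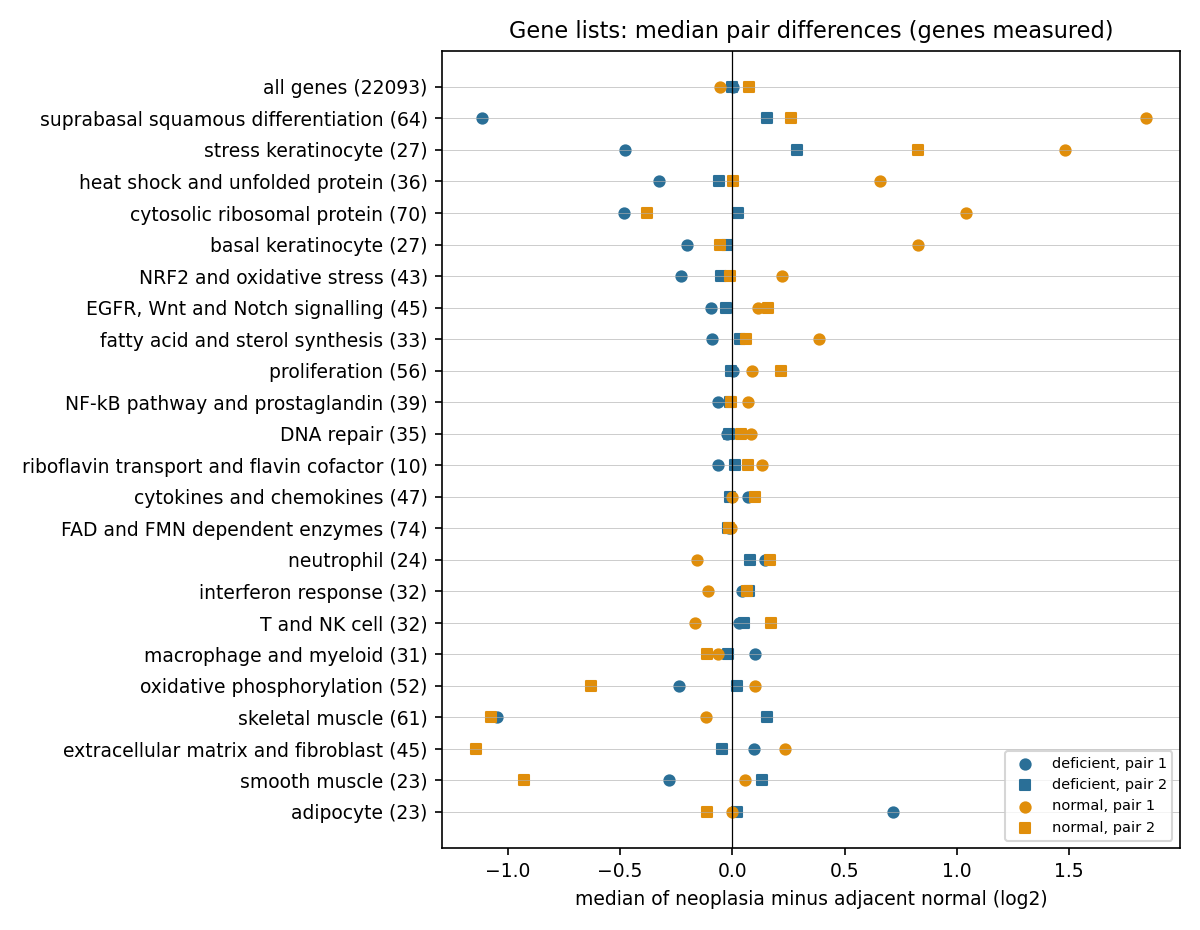
Median over each gene list of the pair differences, neoplasia minus adjacent normal tissue in log2 units, with the number of measured genes in brackets; blue marks are pairs on the riboflavin-deficient diet, orange marks pairs on the normal diet, circles pair 1 and squares pair 2. The suprabasal squamous and stress keratinocyte lists spread furthest between the diets, and the squares of the 2 diets lie close together in the suprabasal list (0.15 and 0.26).

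Adipocyte and stromal lists also held more members higher than lower on the deficient diet. Adipocyte genes had 5 of 23 members higher (21.7%) and 1 lower, against 9.95% and 12.5% over all genes, at a median of 0.58. Besides Cd36, Cfd, the adipocyte factor D, measured 7.04 and 6.83 in neoplasia and 6.32 and 6.41 in adjacent tissue on the deficient diet, against 6.38 and 6.71 in neoplasia and 6.80 and 6.74 in adjacent tissue on the normal diet. Its arrays were apart in both tissues, as were those of Pparg, the adipogenic nuclear receptor (0.58 ± 0.27, and 0.34 without pair 1 of the deficient diet). For Pparg the adjacent arrays were only 0.02 apart at their nearest. The list's median pair difference was 0.72 in pair 1 of the deficient diet and 0.02 in pair 2, and the list's median diet difference was 0.12 without pair 1 and 0.95 without pair 2 of that diet.

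Extracellular matrix and fibroblast genes had 11 of 45 members higher (24.4%) and 3 lower, against 9.95% and 12.5% over all genes, at a median of 0.35. Skeletal muscle genes had 7 of 61 higher (11.5%) and 1 lower, and smooth muscle genes 2 of 23 higher (8.70%) and none lower, both near the 9.95% higher over all genes. Their medians were 0.29 for skeletal muscle, or 0.45 after cyclic loess, and 0.36 for smooth muscle. Mfap5, a microfibril protein, measured 6.16 and 5.22 in neoplasia and 5.03 and 4.92 in adjacent tissue on the deficient diet, against 4.83 and 5.34 in neoplasia and 4.93 and 8.32 in adjacent tissue on the normal diet. Myh2, a fast skeletal myosin, differed by 0.20 and 0.62 on the deficient diet and by -0.05 and -3.46 on the normal diet. In both genes the adjacent tissue of pair 2 on the normal diet was the highest array, and without that animal the diet difference was 0.82 for Mfap5, in place of 2.25, and 0.46 for Myh2, in place of 2.16.

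Without pair 2 of the normal diet the list medians were -0.24 for matrix, -0.07 for skeletal muscle and -0.07 for smooth muscle genes, so none of the 3 lists kept its sign. With control separation as a covariate they were 0.76, 0.52 and 0.68. Ogn, a small leucine-rich proteoglycan, was more even, with 0.11 and 0.26 on the deficient diet and -0.69 and -0.53 on the normal diet. Col1a1 and Acta2 were no members, with diet differences of 0.57 ± 0.35 and 1.08 ± 1.55.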

How the data were processed

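Rat oesophagus RNA from 8 arrays was analysed. The authors deposited log2 values made with Affymetrix Expression Console and RMA (background correction, normalisation and summary of probes), per the submitters' processing notes; versions and genome build are not given in the sources used here. Of 70580 probe sets, 23446 had 1 gene symbol, 505 several, and 46629 were unnamed here or controls. Symbols were updated through Entrez IDs (22077 matched, 1 changed). For the 1182 genes with over 1 probe set the highest mean was kept, which left 22093 genes.

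Groups and pairs came from the titles and from the animal codes in the descriptions, which both tissues of a pair share. Deviations from group means correlated at 0.19 and 0.16 within pairs. limma 3.58.1 in R 4.3.3 fitted animal as a block and the neoplasia effect separately for the diets, with 2 residual degrees of freedom, the diet difference being the contrast of the 2 tissue effects, and p-values were adjusted by Benjamini-Hochberg over all genes at a threshold of 0.05. Whether the rats were housed or processed together is not stated, so p-values measure the spread between these samples.

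Lists (32, with 1134 of 1238 entries measured) and members were chosen with earlier results of these data known, so counts and medians are descriptions. Named genes were the 15 per direction with the largest gap, up to 4 per list, and a panel of genes for riboflavin handling, inflammation and squamous epithelium. The first set and the list genes needed the sign of their diet in both pairs, and the first set also left out predicted symbols, ceiling values and genes with no group mean 1 above the table's median. A selection is printed. The fit was tested on simulated data. Alternatives were quantile and cyclic loess normalisation, filters, the mean of probe sets, no replicate block, control separation as a covariate, and each animal left out.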

Additional observations from a re-analysis of the deposited data

Results flagged for a closer look

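Listed below are named genes with one sign in both pairs of the deficient diet and the other in both of the normal diet. Most were chosen with this sign pattern as a condition, and no minimum size was set. In pair 2 of the deficient diet, for instance, Slc52a3 had -0.005 and Elovl1 had -0.006. For no single gene was the difference called, since limma's adjusted p was 1.0 for each, and the values are diet differences of the tissue effect in log2 units. Over all genes 4.60% and 6.33% had such signs in the higher and the lower direction.

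Among epithelial genes the differences were -6.00 for Sprr1b, -5.96 for Csta, -5.93 for Serpinb12, -4.44 for Perp, -3.82 for Flg, -3.51 for Stfa3, -3.25 for Ehf, -2.79 for Trim29, -2.61 for Krt23, -2.55 for Serpinb2, -2.33 for Klf5, -1.88 for Serpinb3 and 0.63 for Cav1. Among lipid and redox genes they were -3.06 for Elovl1, -2.92 for Gstm1, -2.15 for Gpx2, -1.95 for Elovl6, -1.51 for Slc7a11, -1.38 for Sqle, -1.19 for Scd2, -1.14 for Gclm, -0.71 for Sqor, -0.53 for Smox and 0.55 for Acad8.

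Among genes of growth, division and repair they were -2.28 for Kpna2, -1.81 for Fgfbp1, -1.48 for Rad23b, -1.36 for Mki67, -0.93 for Cdkn1a, -0.85 for Ogg1, -0.85 for Birc5, -0.81 for Prc1, -0.76 for Cenpe, -0.69 for Ccnd1 and -0.69 for Nrg1. Among chaperone, ribosomal and respiratory genes they were -1.89 for Rps28, -1.83 for Ndufb6, -1.80 for Rpl23a, -1.79 for Rpl19, -1.73 for Hsp90b1, -1.32 for Hsp90aa1 and -1.12 for Hspd1. Riboflavin genes had -0.32 for Slc52a3, 0.57 for Slc25a32 and -1.88 for Acp1.

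Among immune genes they were -1.04 for Tnf, -0.92 for Ripk2, -0.90 for Il1a, -0.58 for Ccl22, 0.96 for Cd68, 0.96 for Erap1, 0.61 for Il7r, 0.58 for Gbp2 and 3.30 for Pla2g2a. Stromal, muscle and adipocyte genes had 2.57 for Cd36, 2.25 for Mfap5, 2.16 for Myh2, 0.80 for Cfd, 0.79 for Ogn and 0.58 for Pparg. Without pair 2 of the normal diet Mfap5 had 0.82 and Myh2 had 0.46. Other leading genes had -3.56 for Uchl3, -2.42 for Ell2, -2.21 for Pdap1, -1.51 for Pdcd10, 2.48 for Spetex2e, 1.95 for Bche, 1.68 for Pex19, 1.68 for Poteml1, 1.66 for Spetex2l2, 1.29 for Armc10, 1.29 for Mrps36, 1.13 for Upk1b, 1.06 for Ggt5, 0.91 for Kbtbd12, 0.90 for Iqcf5 and 0.73 for Chodl. The microRNA genes had 2.53 for Mir350, 1.51 for Mir93 and -1.67 for Mir505.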

How the results depend on the processing

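With 2 animals a diet, the number of animals limits every value here, and no gene passed limma under any setting tried. Unadjusted p under 0.05 was met by 315 to 2332 genes, against 760 in the fit reported, and the lowest adjusted p was 0.421, without pair 2 of the normal diet. Without the replicate block that pairs the tissues of an animal, 548 genes had an unadjusted p under 0.05 and no call changed. The differences of genes and lists cannot change in that setting, since every animal gave both tissues, so their equality is no test. By sign alone, which is all the rule can ask without the block, 5870 genes were higher and 6043 lower. With both pairs required the counts were 1016 higher and 1399 lower, with both pairs at least 0.5 from 0 they were 2 and 14, and among genes above the median level 821 were higher and 1993 lower. After quantile normalisation 1913 were higher and 3664 lower. With the mean of probe sets in place of the highest, the differences of 6 named genes shrank most, to -0.89 for Elovl6, -0.72 for Acp1, 0.93 for Pex19, 0.41 for Ggt5, 0.43 for Kbtbd12 and 0.80 for Poteml1. With 1 animal left out, which relaxes the rule, 3161 to 6376 were higher and 4046 to 5508 lower.

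With 1 animal left out, list medians ran between -2.40 and -0.65 for suprabasal squamous, -1.89 and -0.56 for stress keratinocyte, -0.96 and -0.013 for basal keratinocyte, -0.26 and -0.065 for proliferation, -0.86 and -0.27 for heat shock, -0.43 and -0.16 for NRF2, -0.17 and -0.013 for NF-kB, -0.22 and -0.10 for EGFR, Wnt and Notch, and -0.11 and -0.038 for DNA repair. They reached both signs for ribosomal protein (-1.26 to 0.18), skeletal muscle (-0.10 to 0.83, and -0.065 without pair 2 of the normal diet), smooth muscle (-0.069 to 1.01), matrix (-0.24 to 1.01), oxidative phosphorylation (-0.21 to 0.40, and -0.07 without pair 2 of the deficient diet), cytokines (-0.072 to 0.046), neutrophil (-0.08 to 0.25), riboflavin (-0.20 to 0.053) and FAD or FMN enzymes (-0.006 to 0.048). Macrophage genes ran between 0.042 and 0.20 and adipocyte genes between 0.12 and 0.95.

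Among genes above the median level, which leaves fewer of them, medians were -0.27 for proliferation, -0.17 for NF-kB, 0.007 for macrophage, -0.37 for riboflavin, 0.022 for FAD or FMN enzymes, -0.29 for EGFR, Wnt and Notch, -0.15 for interferon and -0.15 for DNA repair. After quantile normalisation they were -0.19 for proliferation, -0.17 for NF-kB, 0.03 for macrophage and -0.026 for FAD or FMN enzymes. After cyclic loess they were -0.14 for NF-kB and 0.013 for FAD or FMN enzymes. With control separation as a covariate they were -0.21 for proliferation and 0.015 for FAD or FMN enzymes. The cause of these shifts was not tested.

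Of 97 genes named, 6 changed sign under a setting. S100a8 had 0.21 after quantile normalisation, 0.14 after cyclic loess, 0.14 with the covariate, 1.07 without pair 1 and -1.08 without pair 2 of the deficient diet, and 0.034 without pair 1 of the normal diet. Cxcl1 had -0.004 after quantile normalisation, -0.009 after cyclic loess, and between -0.023 without pair 1 and 0.156 without pair 2 of the normal diet. Slc52a2 ran between -0.061 without pair 1 and 0.39 without pair 2, and Nfkbia between 0.18 without pair 1 and -0.83 without pair 2 of that diet. Rfk had 0.065 without pair 1 and -0.90 without pair 2 of the deficient diet. Acta2 had 3.33 without pair 1 and -1.17 without pair 2 of the normal diet.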

Other observations

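MicroRNA genes were a group looked at after the values had been seen. Of 382 measured, 63 (16.5%) were members higher on the deficient diet, against 9.95% of all genes, and 27 (7.07%) were members lower, against 12.5%. Their median diet difference was 0.10, and their signal was low, with array medians of 4.47 to 4.91. All but the lowest of these medians lay in the level class of 4.59 to 5.10, where 12% were members higher and 7.57% members lower. In the lowest of the 4 level classes the shares were 13.0% and 6.44%. The part of signal level in the microRNA shares was not tested. The probe sets interrogate the gene region and do not tell a mature arm from its precursor.

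The mature sequences of the 3 microRNA genes described are shown to identify them, with the seed (bases 2 to 8) in capitals, from RefSeq on build GRCr8, all on the minus strand.
rno-miR-350, chr13:91244549-91244572: uUCACAAAgcccauacacuuucac
rno-miR-93-5p, chr12:22156894-22156916: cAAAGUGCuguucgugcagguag
rno-miR-93-3p, chr12:22156856-22156878: aCUGCUGAgcuagcacuucccga
rno-miR-505-3p, chrX:143778784-143778803: gUCAACACuugcugguuucc
rno-miR-505-5p, chrX:143778818-143778840: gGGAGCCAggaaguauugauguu
No seed was shared among them. Mir350 measured 4.85 and 7.29 in neoplasia and 3.71 and 7.09 in adjacent tissue on the deficient diet, against 4.83 and 3.64 in neoplasia and 6.67 and 5.52 in adjacent tissue on the normal diet. Its animals differed by more than its tissues on the deficient diet. Mir93, a gene of a cluster that is active in dividing cells, had pair differences of 0.65 and 0.68 on the deficient diet and -1.42 and -0.27 on the normal diet. Mir505 had -0.05 and -0.43 on the deficient diet and 1.79 and 1.07 on the normal diet.

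A further 9 lists, of p53 targets, B cells, mast cells, endothelium, nerve, glands, erythrocytes, immediate early genes and glycolysis, held 205 measured entries, of which 24 were members higher and 21 lower. Mast cell genes had 3 of 14 higher (21.4%) and none lower. The shares over all genes were 9.95% higher and 12.5% lower. Across the 9 lists the shares ran between 4.76% and 21.4% higher and between 0% and 23.3% lower. Their median diet differences ran between -0.19 and 0.13.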
